A study of Mus musculus with 36 samples.

Results

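Lungs of A/J and C3H mice differ widely in the level of 10 genes, which were followed over weeks and after NNK: Klk1b22, Bst1, Dysf, Alkal1, Nptx1, Dnase1l3, Abca17, Zfp605, Nme7 and Sfmbt2. They are 10 of 19938 genes measured and were chosen by symbol for the size of their A/J minus C3H difference in untreated arrays, so that difference is described here and not tested. Total RNA of mouse lung was hybridised to 36 Affymetrix Mouse Gene 1.0 ST arrays. The groups were A/J untreated, A/J given NNK, C3H untreated and C3H given NNK. NNK is the tobacco nitrosamine 4-(methylnitrosamino)-1-(3-pyridyl)-1-butanone, a lung carcinogen in mice, and was injected weekly at 100 mg/kg for 4 weeks. Untreated lungs came from weeks 0, 3, 6, 9 and 12 and NNK lungs from weeks 3, 6, 9 and 12 after exposure, with 2 arrays in each of the 18 groups. Age, sex and the C3H substrain are not given in the labels used here. Nothing in the labels says that both arrays of a group stem from different animals, so the p-values reflect no more than the scatter of these samples, and that scatter may be technical. Each strain is 1 inbred line here, and strain cannot be told apart from anything else that was handled strain by strain.

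The 10 genes belong to no single pathway. Their products include secreted or surface enzymes (a kallikrein protease, an ADP-ribosyl cyclase and a deoxyribonuclease) and secreted or synaptic signalling proteins. The others act in membrane repair, lipid transport, transcription, microtubule nucleation and chromatin. Inbred strains are each fixed for 1 haplotype at almost every locus, so a variant that alters a transcript is carried by every animal of the strain. A variant under an array probe can also lower the signal of a transcript without lowering the transcript.

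Levels below are log2(intensity + 16) after quantile normalization between arrays, differences are on the same log2 scale, and a fold on this scale understates the change of a dim gene. In bulk lung, fewer cells of a type and less RNA per cell cannot be told apart. All 10 lung epithelium and vessel markers looked for were measured, and their median level lay at the 99.8th percentile of genes. The array medians of deposited intensity ran from 285 to 347, and precision is set by how many arrays there are. There were 3 arrays that stood apart by the cornified skin gene Lor, at 12.74 or more against at most 7.40 elsewhere: untreated A/J array 2 of week 0 and both untreated A/J arrays of week 6. Saa3, an acute-phase gene, was at 13.33 and 11.76 in the C3H NNK arrays of week 3. It was at 10.42 and 11.76 in the A/J NNK arrays of week 6 and at 12.32 in untreated A/J array 2 of week 3. Elsewhere Saa3 was at most 9.26. Top2a, a proliferation gene, reached 9.71 in A/J NNK array 1 of week 6.

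In no array did a level of the lower strain reach the range of the higher strain for any of the 10 genes. Of the 10, 9 were lower in A/J and 1, Nptx1, was higher. Over all tested genes, 5.66% kept the strains apart over all 36 arrays. The 36 arrays include the untreated ones on which the 10 genes were chosen, so their separation is a description. In untreated arrays 56.1% of all tested genes passed the limma test, a share given as background only. By the size of the untreated difference the members hold 10 of the first 20 ranks. They run from Klk1b22 at rank 1 to Sfmbt2 at rank 20 with a difference of -1.74, and these ranks follow from the choice. The next gene outside was Cspg4b, at rank 21 with 1.72. Of the other 10 genes in those ranks, 8 had strains that overlapped, among them the natriuretic peptide gene Nppa. The strains stayed apart for H2-T10 and Bpifb1 in those ranks and for Cspg4b, so separation is not particular to the members.

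**Figure D1:**
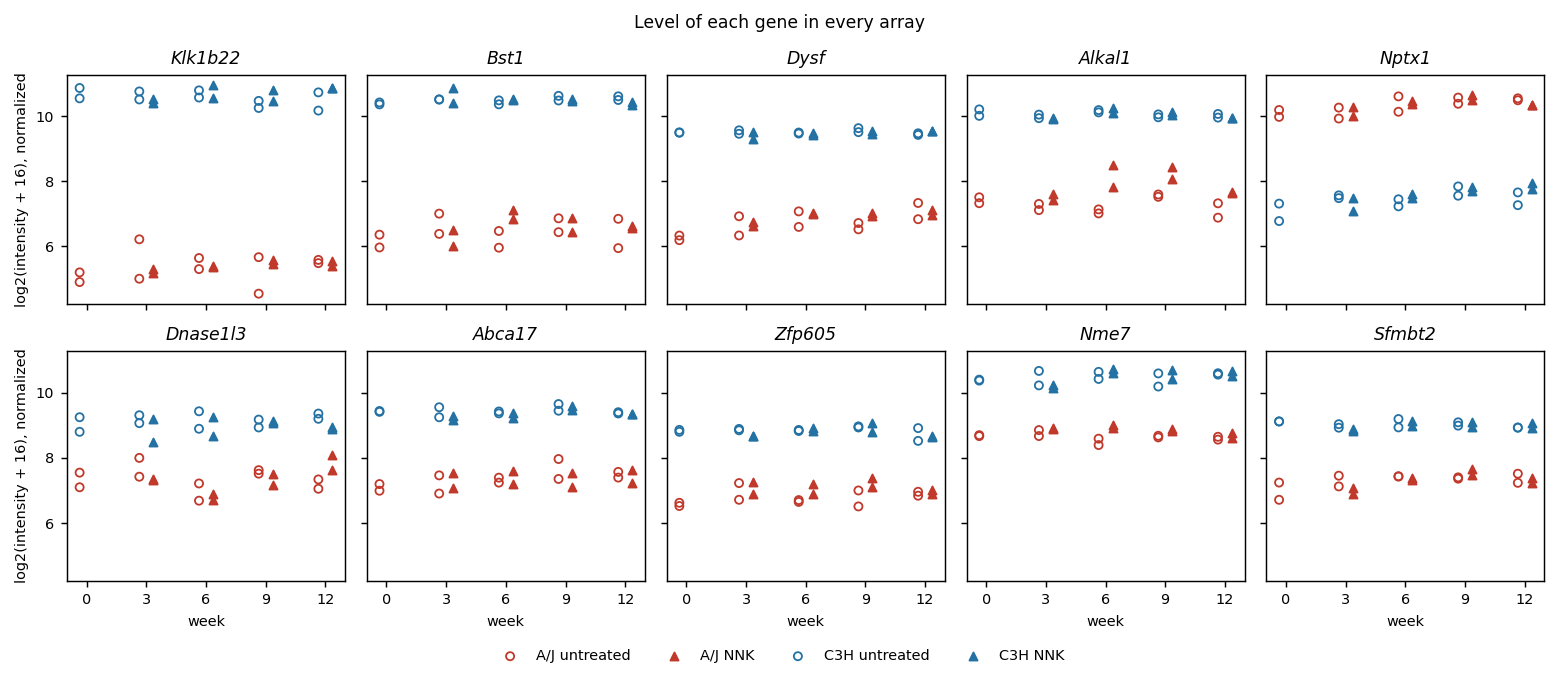
Level of each of the 10 genes, log2(intensity + 16) after normalization, in every array against week, with A/J in red, C3H in blue, open circles for untreated and filled triangles for NNK arrays. The strains stay apart in all panels, by the narrowest margin for Dnase1l3 (0.42), and within each of weeks 3, 6, 9 and 12 the A/J Alkal1 triangles lie above the A/J circles.

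The gap between the lowest array of the higher strain and the highest array of the lower strain was widest for Klk1b22, at 3.95. It was 3.22 for Bst1, 1.99 for Nptx1, 1.97 for Dysf and 1.42 for Alkal1. For Abca17, Sfmbt2, Zfp605 and Nme7 it lay between 1.12 and 1.21. Dnase1l3 had the narrowest gap, 0.42. The SD over arrays was larger in the strain of lower level for 9 of the 10 genes, the exception being Nme7.

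NNK arrays were not used to choose the genes, so the strain difference could be tested there. All 10 genes differed between the strains in NNK arrays (limma, adjusted p between 1.22e-17 and 3.44e-10), in the direction seen without NNK. Lower in A/J were 9 of the 10 (29.8% of all genes) and higher 1 (23.5%). Over all genes 53.3% passed in either direction, and 0.649% passed it with a difference of at least 2-fold. In 15.7% of tested genes the 16 NNK arrays kept the strains apart. Passing a filter on low values is no support here: 8 of the 10 genes had a mean in their lower strain under the level of 7.545 that a gene's mean needed for testing, so they entered through the strain in which they were high. The median size of the difference was 2.06 for the 10 genes and 0.13 for all tested genes.

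**Figure D2:**
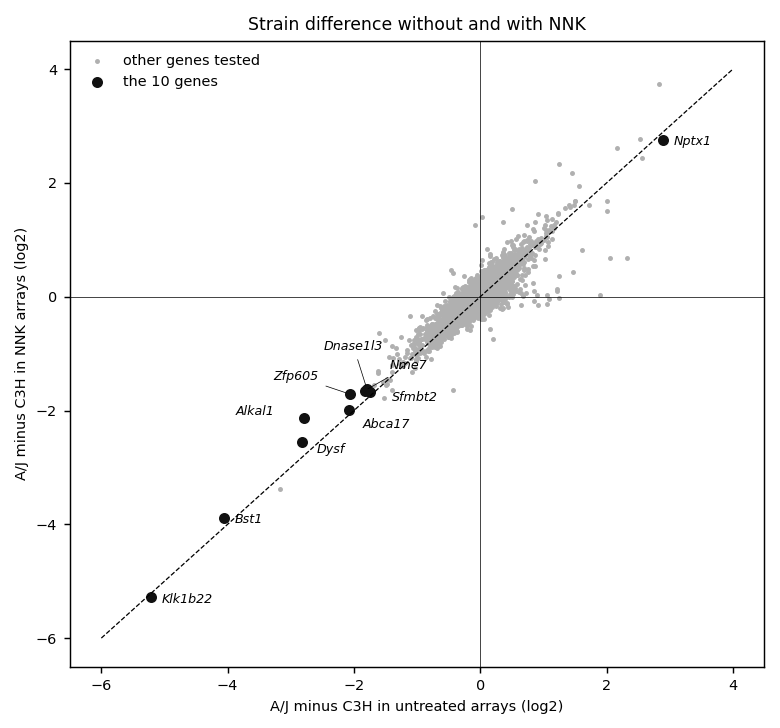
A/J minus C3H difference in untreated arrays (horizontal) against that in NNK arrays (vertical), both log2, for the 14953 tested genes in grey and the 10 genes in black. The dashed line marks equal differences, and Alkal1 lies farthest above it among the 10, at -2.78 untreated and -2.14 with NNK.

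Klk1b22 encodes a glandular kallikrein, a serine protease of a mouse gene cluster best known from salivary gland. In untreated A/J arrays its level was lowest at 4.55, median 5.40 and highest 6.22. In untreated C3H arrays the lowest, median and highest were 10.17, 10.56 and 10.87. The NNK arrays ran from 5.18 to 5.58 in A/J and from 10.40 to 10.96 in C3H. The closest arrays of the 2 strains, both untreated, were 3.95 apart. The A/J minus C3H difference was -5.21 untreated and -5.28 ± 0.15 (SE) in NNK arrays (adjusted p = 1.22e-17, 39.0-fold). In A/J the deposited intensity was 2.26 to 49.8, close to the constant of 16 that was added, while in C3H it was 1118 to 2021. With a constant of 1 in place of 16 the NNK-array difference was -5.91. Of 9 salivary gland markers 7 were measured and 2 tested. Of those tested, 0 were higher and 1 lower in A/J NNK arrays (23.5% and 29.8% of all genes). The lower one, Prol1, was at -0.37 (adjusted p = 0.000459), and the growth factor gene Egf was at -0.02 (adjusted p = 0.762). The mean level of both was 7.76 to 8.20 in A/J and 8.04 to 8.33 in C3H NNK arrays, and their part in the Klk1b22 difference was not tested.

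Kallikrein genes of the Klk1b family are closely related copies. A probe set of their own was present for 8 other Klk1b genes, and none showed a difference like that of Klk1b22: the largest in size was 0.61, over all arrays, and most of these probe sets were too dim to be tested. In NNK arrays 5 other genes of the glandular kallikrein list were tested and 0 differed (53.3% of all genes did, limma). The largest size among them was that of Klk1b9, at 0.13 (adjusted p = 0.222). Of 5 tested Klk genes outside the list, 1 was called: Klk15, a close neighbour of Klk1b22, at -0.17 ± 0.05 (adjusted p = 0.00355). The next in size of these was Klk4, at -0.10 ± 0.05 (adjusted p = 0.0911). The promoter windows of Klk1b22 and Klk1b9 are shown because, of the 13 paralogues with an entry, Klk1b9 has the window closest to that of Klk1b22, with 83.3% identical aligned bases (range 54.3% to 83.3%, median 76.5%). Both hold the 250 bases before the RefSeq transcription start, 5′ to 3′, from RefSeq on GRCm38.p6, plus strand, Klk1b22 at chr7:44112423-44112672 and Klk1b9 at chr7:43975811-43976060. Capitals mark a GC box (GGGCGG, either strand). The reference genome is of C57BL/6J, neither strain measured here.
Klk1b22: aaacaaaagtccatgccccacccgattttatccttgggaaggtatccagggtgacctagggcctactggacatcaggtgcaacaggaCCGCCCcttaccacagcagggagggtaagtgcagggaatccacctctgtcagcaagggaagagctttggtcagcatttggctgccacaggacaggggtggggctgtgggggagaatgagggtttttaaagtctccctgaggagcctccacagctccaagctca
Klk1b9: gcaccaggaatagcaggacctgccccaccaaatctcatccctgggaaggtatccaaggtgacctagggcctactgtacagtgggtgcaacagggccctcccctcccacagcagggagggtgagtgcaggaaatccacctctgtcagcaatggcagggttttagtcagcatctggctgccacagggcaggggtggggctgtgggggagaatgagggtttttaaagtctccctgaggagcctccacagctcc

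The GC box began 163 bases before the start in Klk1b22 and was not found in the Klk1b9 window. The identity is that of these windows, and that of the transcripts was not computed. The letters of the array probes and the A/J and C3H sequences were not in the files used here, so the part of probe sequence or cross-reading in the Klk1b22 difference was not tested.

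**Figure D3:**
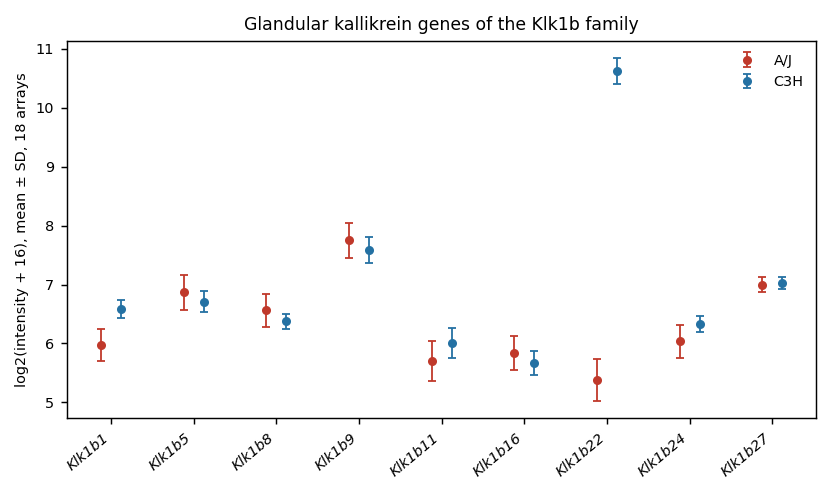
Mean ± SD over 18 arrays per strain of log2(intensity + 16) for the 9 Klk1b genes with a probe set, A/J in red and C3H in blue. Levels of different probe sets are not comparable, but within a gene only Klk1b22 has strains that stand far apart, by 5.24, and the others differ by at most 0.61.

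Bst1, also called CD157, encodes a surface enzyme of stromal and myeloid cells that makes and breaks down cyclic ADP-ribose. In A/J its level ran from 5.95 to 7.01 untreated, with a median of 6.41, and from 6.02 to 7.12 with NNK. In C3H it ran from 10.36 to 10.63 untreated, with a median of 10.49, and from 10.34 to 10.86 with NNK. The C3H arrays were nearly level over the weeks, and the A/J arrays were low throughout with more scatter. The difference was -4.06 untreated and -3.89 ± 0.12 in NNK arrays (adjusted p = 7.55e-17, 14.8-fold). Among 10 other tested genes of NAD and cyclic ADP-ribose metabolism, 1 was higher and 4 lower in A/J NNK arrays (all genes: 23.5%, 29.8%). The largest sizes were those of the NAD synthesis enzymes Nmnat1 (-0.66, adjusted p = 6.66e-10) and Nmnat2 (-0.56, adjusted p = 8.58e-10). Of 7 macrophage markers 4 were lower in A/J NNK arrays and 0 higher (29.8% and 23.5% of all genes), with a median of -0.42. Their mean level was 9.98 to 10.35 in A/J and 10.40 to 10.72 in C3H NNK arrays, and their part in the Bst1 difference was not tested. Of 8 neutrophil markers, also of myeloid cells, 3 were higher and 1 lower in A/J NNK arrays (23.5% and 29.8% of all genes). Their median difference was 0.23. The granule protein gene Ltf was at 2.33 (adjusted p = 1.65e-10) and Retnlg at -0.91 (adjusted p = 5.46e-05). The mean level of the list was 8.31 to 9.84 in A/J and 8.10 to 8.79 in C3H NNK arrays, and its part in the Bst1 difference was not tested either.

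Dysf encodes dysferlin, a ferlin that helps reseal damaged plasma membrane in muscle. A/J mice are known to carry a retrotransposon insertion in an intron of Dysf and to lack the protein. In untreated A/J arrays the lowest, median and highest levels were 6.19, 6.66 and 7.34, and in untreated C3H arrays 9.43, 9.50 and 9.64. With NNK they ran from 6.62 to 7.11 in A/J and from 9.31 to 9.55 in C3H. C3H levels lay within 0.32 of each other over all 18 arrays, while those of A/J spread over 1.14. The difference was -2.82 untreated and -2.55 ± 0.08 in NNK arrays (adjusted p = 5.41e-17, 5.86-fold). Of 8 other tested genes of ferlins and membrane repair, 3 were higher and 0 lower in A/J NNK arrays (all genes: 23.5% and 29.8%). Among them were the membrane-binding annexin gene Anxa1 (0.54, adjusted p = 1.37e-10) and Ahnak (0.30, adjusted p = 5.55e-08), which encodes a large scaffold of repair complexes.

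Alkal1 encodes a small secreted ligand of the receptor kinases ALK and LTK. Untreated A/J levels were lowest at 6.88, median 7.32 and highest 7.60, and untreated C3H levels 9.94, 10.05 and 10.21. In A/J NNK arrays they ran from 7.43 to 8.49 with a median of 7.75, and in C3H NNK arrays from 9.91 to 10.25. The A/J arrays with NNK at weeks 6 and 9 were the closest of all to C3H. The difference was -2.78 untreated and -2.14 ± 0.08 in NNK arrays (adjusted p = 1.10e-15, 4.39-fold). Of 3 other tested ALK ligands and receptors, 0 were higher and 1 lower in A/J NNK arrays (23.5% and 29.8% of all genes). The lower one was the heparin-binding growth factor gene Mdk (-0.38, adjusted p = 0.000394).

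Nptx1 encodes neuronal pentraxin 1, a secreted protein that gathers receptors at synapses, and was the single member higher in A/J. Untreated A/J levels were lowest at 9.93, median 10.33 and highest 10.61, and untreated C3H levels 6.78, 7.47 and 7.84. In NNK arrays they ran from 10.02 to 10.67 in A/J and from 7.10 to 7.94 in C3H. The difference was 2.90 untreated and 2.76 ± 0.09 in NNK arrays (adjusted p = 1.25e-16, 6.76-fold), and the closest arrays of the strains were 1.99 apart. Of 3 tested neuroendocrine and neuronal markers 1 was higher and 1 lower in A/J NNK arrays (23.5% and 29.8% of all genes). Their median difference was -0.12. Their mean level was 8.14 to 8.38 in A/J and 8.19 to 8.41 in C3H NNK arrays. The 1 other tested pentraxin gene did not pass the test (size 0.08).

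Dnase1l3 encodes a secreted deoxyribonuclease that digests chromatin in dead-cell particles and is made mainly by dendritic cells and macrophages. Untreated A/J levels were lowest at 6.69, median 7.38 and highest 8.003, and untreated C3H levels 8.80, 9.19 and 9.44. Under NNK the levels ran from 6.70 to 8.08 in A/J and from 8.50 to 9.26 in C3H. It came closest to an overlap of the strains, through A/J NNK array 2 of week 12 and C3H NNK array 1 of week 3. The difference was -1.79 untreated and -1.63 ± 0.12 in NNK arrays (adjusted p = 3.44e-10, 3.09-fold).

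Dendritic cell markers also differed between the strains. Of 8 measured and tested, 7 were lower in A/J NNK arrays and 0 higher (all genes: 29.8% and 23.5%), with a median of -0.73. The conventional dendritic cell genes Xcr1 and Clec9a were at -1.32 (adjusted p = 3.02e-09) and -1.24 (adjusted p = 1.29e-09). Flt3, the growth factor receptor of the lineage, was at -0.79 (adjusted p = 4.14e-06), and Zbtb46 did not pass the test (-0.03, adjusted p = 0.580). The mean level of the list was 7.83 to 8.56 in A/J NNK arrays and 8.93 to 9.13 in C3H NNK arrays, and 8.02 to 8.55 against 9.02 to 9.26 without NNK. Of 7 tested macrophage markers, 4 were also lower in A/J NNK arrays and 0 higher (29.8% and 23.5% of all genes), with a median of -0.42. The part of dendritic cells or macrophages in the Dnase1l3 difference was not tested. Of 7 other tested secreted and lysosomal nucleases, 2 were higher and 3 lower in A/J NNK arrays (23.5% and 29.8% of all genes). The lysosomal exonuclease gene Pld4 (-0.63, adjusted p = 6.67e-08) and its relative Pld3 (-0.35, adjusted p = 1.01e-07) were among the lower ones.

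Abca17 encodes a transporter of the ABCA lipid transporter family. Untreated A/J levels were lowest at 6.91, median 7.38 and highest 7.97, and untreated C3H levels 9.25, 9.42 and 9.66. After NNK the levels ran from 7.09 to 7.63 in A/J and from 9.18 to 9.61 in C3H, and the groups stayed more than 1 unit apart. The difference was -2.09 untreated and -1.99 ± 0.10 in NNK arrays (adjusted p = 2.97e-13, 3.96-fold). Of 10 other tested ABCA genes 3 were higher and 4 lower in A/J NNK arrays (23.5% and 29.8% of all genes). Abca8a was lower (-0.51, adjusted p = 2.35e-08), as was Abca6 (-0.65, adjusted p = 6.67e-08). Abca3, the surfactant lipid transporter of alveolar type 2 cells, overlaps Abca17 in the gene table and went the other way (0.23 ± 0.03, adjusted p = 5.96e-06).

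Zfp605 encodes a KRAB zinc finger protein, of the family that silences transposons through the corepressor Trim28. Untreated A/J levels were lowest at 6.51, median 6.71 and highest 7.23, and untreated C3H levels 8.53, 8.86 and 8.97. NNK arrays ran from 6.88 to 7.38 in A/J and from 8.64 to 9.09 in C3H. The strains stayed apart, with C3H always above 8.5. The difference was -2.07 untreated and -1.71 ± 0.08 in NNK arrays (adjusted p = 1.49e-13, 3.27-fold). Of 9 other tested genes of this silencing machinery, 3 were higher and 4 lower in A/J NNK arrays (23.5% and 29.8% of all genes). The heterochromatin protein gene Cbx1 was at 0.47 (adjusted p = 7.93e-10) and the zinc finger gene Zfp933 at -0.49 (adjusted p = 4.45e-07).

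Nme7 encodes a nucleoside diphosphate kinase relative that sits in the gamma-tubulin ring complex, which starts microtubules. Untreated A/J levels were lowest at 8.40, median 8.66 and highest 8.86, and untreated C3H levels 10.20, 10.50 and 10.68. In NNK arrays levels ran from 8.62 to 9.02 in A/J and from 10.14 to 10.75 in C3H. Nme7 was the member with the least scatter in A/J, where all 18 arrays lay within 0.62. The difference was -1.83 untreated and -1.65 ± 0.06 in NNK arrays (adjusted p = 3.03e-15, 3.14-fold). Of 8 other tested nucleoside diphosphate and adenylate kinases, 6 were higher and 1 lower in A/J NNK arrays (23.5% and 29.8% of all genes). Nme5, a gene of motile cilia, was higher (0.55, adjusted p = 5.05e-09), and Nme3 was lower (-0.32, adjusted p = 2.75e-06).

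Sfmbt2 encodes a Polycomb-group protein, is imprinted, and carries a large microRNA cluster in an intron. Untreated A/J levels were lowest at 6.72, median 7.38 and highest 7.52, and untreated C3H levels 8.93, 9.02 and 9.20. With NNK levels ran from 6.88 to 7.67 in A/J and from 8.82 to 9.14 in C3H, which is a narrow band for C3H. The difference was -1.74 untreated and -1.68 ± 0.07 in NNK arrays (adjusted p = 6.21e-15, 3.21-fold). Of 71 microRNA genes that the gene table places within its span, 4 had a probe set of their own. Mir669b was bright enough to be tested and did not pass (-0.10 ± 0.10, adjusted p = 0.415). Mir466, Mir669c and Mir297b were dim and not tested, at -0.83, -0.39 and -0.55 in NNK arrays and at -1.04, -0.42 and 0.18 in untreated arrays. Mir297b thus had opposite signs with and without NNK. Of 17 other tested MBT and Polycomb genes 5 were higher and 7 lower in A/J NNK arrays (23.5% and 29.8% of all genes). The Polycomb repressive complex subunit genes Eed (0.55, adjusted p = 5.23e-11) and Phc2 (-0.23, adjusted p = 7.01e-07) went opposite ways.

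The strain difference kept its sign in 9 of 9 comparisons of a week and treatment for each of the 10 genes. Its size ran from 4.92 to 5.66 over those comparisons for Klk1b22, from 3.53 to 4.37 for Bst1 and from 2.50 to 3.06 for Nptx1. It ran from 2.36 to 3.24 for Dysf and from 1.82 to 3.08 for Alkal1. Dnase1l3, the widest relative to its size, ran from 1.06 to 2.21. Strain held 98.8% of the variation of Klk1b22 over the 36 arrays and 94.1% of that of Alkal1, where week and treatment within a strain held 5.01%. The lowest share was that of Dnase1l3, 88.3%, with 7.19% for week and treatment and 4.48% between the arrays of a group. These shares include the untreated arrays that chose the genes and are a description.

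Whether the strain difference varied over weeks 3 to 12 within the NNK arrays was tested with a moderated F test. Of the 10 genes 0 passed (limma, 0.963% of all genes), with 2 at an unadjusted p under 0.05 and a lowest adjusted p of 0.213, for Nme7. Nme7 was at -1.28 in week 3 and at -1.92 in week 12. A miss of the threshold does not show that the difference was constant.

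The NNK comparisons subtract the untreated arrays on which the genes were chosen. A gene chosen for a low untreated level in A/J tends, by that choice, to look higher in any other A/J arrays, so these values are a description and no p-value is given for them. In A/J 2 of the 10, Alkal1 and Nme7, passed the limma threshold upward (7.44% of all genes did) and 0 downward (2.60% of all genes), and nothing is read from these counts. Alkal1 was higher with NNK by 0.66 ± 0.08, at 7.90 against 7.24 over the same weeks (1.58-fold). The weekly differences were 0.31, 1.08, 0.70 and 0.56 in weeks 3, 6, 9 and 12, all upward. Leaving out 1 array at a time gave 0.58 to 0.74, and without week 6 and the untreated A/J array of week 0 with high Lor it was 0.52. Zfp605 was higher by 0.25 ± 0.08, and leaving out 1 array at a time gave 0.16 to 0.31. Nme7 was higher by 0.23 ± 0.06, by 0.48 in week 6 and 0.08 in week 12. Without week 6 and the untreated A/J array of week 0 with high Lor, Nme7 was at 0.14. The other 7 genes lay between -0.07 and 0.13 with intervals that included 0.

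**Figure D4:**
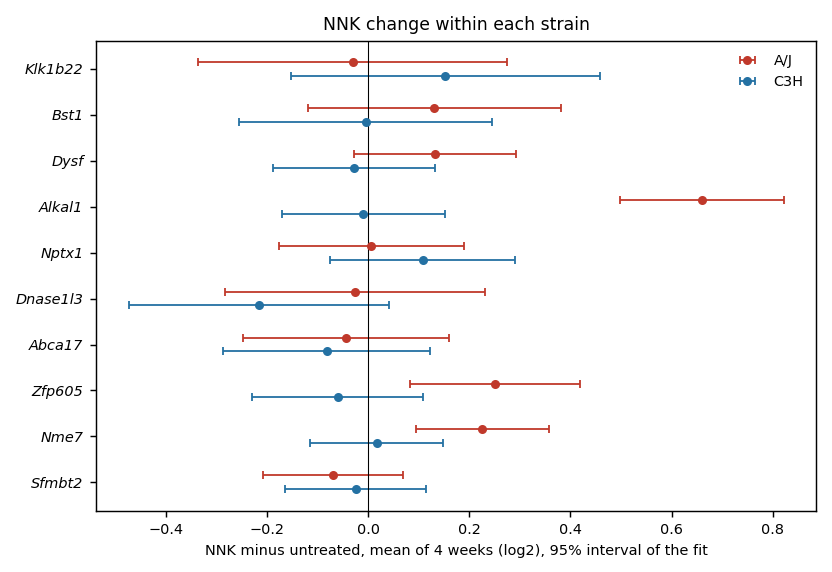
NNK minus untreated difference for each gene, log2 mean of weeks 3, 6, 9 and 12, in A/J (red) and C3H (blue), with the 95% confidence interval of the fit. Alkal1 in A/J, at 0.66, lies above all other intervals, and the C3H intervals all include 0. The untreated arrays also served to choose the genes.

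In C3H, where untreated arrays of the choice are subtracted too, 0 of the 10 passed the limma threshold for NNK against untreated. Over all genes 0.0803% passed, and nothing is read from this count. The C3H value of Alkal1 was -0.01, with an interval from -0.17 to 0.15, and the widest interval was that of Klk1b22, from -0.15 to 0.46. The A/J minus C3H difference of the NNK changes contains the untreated strain difference that chose the genes, with its sign turned, and is likewise given without a test. It was 0.67 ± 0.11 for Alkal1, 0.31 ± 0.12 for Zfp605 and 0.21 ± 0.09 for Nme7. Of the 10 genes 1, Alkal1, was past the threshold (1.13% of all genes), from which nothing is read. For Alkal1 it was 0.59 to 0.75 with 1 array left out at a time, and 0.54 without week 6 and the untreated A/J array of week 0 with high Lor. Without A/J NNK array 1 of week 6, where Top2a was highest, and C3H NNK array 1 of week 3, it was 0.58. Both untreated A/J arrays of week 6 had high cornified skin genes, and their part in the Alkal1 values was not tested.

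Set against untreated weeks 3 to 12, the strain difference in NNK arrays was 76.1% as large for Alkal1 and 84.6% for Zfp605. It was 88.8% for Nme7, 89.5% for Dnase1l3, 94.1% for Dysf, 96.4% for Nptx1, 96.6% for Bst1 and 98.1% for Abca17. For Sfmbt2 and Klk1b22 it was 103% and 104%. These percentages are set against the arrays of the choice, which tends to keep them under 100%, and are a description.

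Over 12 weeks without NNK, 4 of the 10 genes rose in A/J, against 22.8% of all genes in either direction and 17.5% upward. These are untreated arrays on which the genes were chosen, for their strain difference and not for a trend. Nothing is read from this count. Dysf rose by 0.65 ± 0.14 (adjusted p = 0.00251), Nptx1 by 0.50 ± 0.16 (adjusted p = 0.0275), Abca17 by 0.50 ± 0.18 (adjusted p = 0.0440) and Sfmbt2 by 0.35 ± 0.12 (adjusted p = 0.0373). None of the 4 calls was kept on the deposited scale without quantile normalization, where the values were 0.33, 0.44, 0.28 and 0.12. On that scale 40.6% of the genes with an A/J trend went upward, against 76.9% after normalization. With normalization the median A/J trend was 0.16 in the dimmest 20% of genes and 0.02 in the brightest 20%. Without untreated A/J array 2 of week 0, Sfmbt2 was at 0.14 (adjusted p = 0.441), and its call was also lost without array 1 of weeks 3 and 12 or array 2 of week 9. Without untreated A/J array 1 of week 0, Nptx1 was at 0.42 (adjusted p = 0.134), and its call was also lost without array 1 of week 3 or either array of week 12. The Abca17 call was lost in 14 of 36 fits that left out 1 array, 8 of them without a C3H array, and was at its lowest without untreated A/J array 2 of week 9 (0.38, adjusted p = 0.119). The Dysf call held in all 36, between 0.45 and 0.85.

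The C3H trend and the difference of trends also rest on the untreated arrays on which the genes were chosen. In untreated C3H 0 of the 10 had a week trend (limma, 0.863% of all genes), with 1 at an unadjusted p under 0.05, Nptx1 at 0.40 ± 0.16. The trend differed between the strains for 0 of 10 (limma, 1.32% of all genes), with 2 at an unadjusted p under 0.05. Dysf had the lowest adjusted p of these, at 0.67 ± 0.20 (adjusted p = 0.0843), and Sfmbt2 was at 0.48 ± 0.17 (adjusted p = 0.147). Dysf passed without untreated A/J array 2 of week 3 (0.79, adjusted p = 0.0108) and without array 1 of week 9 or 12, and Sfmbt2 without array 1 of week 0 (0.69, adjusted p = 0.0236). Of all genes whose trend differed, 83.2% were higher in A/J after normalization and 61.4% without it.

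Genes beside the 10 on their chromosomes did not share the large differences. Up to 3 tested genes on each side gave 58 neighbours, of which 21 differed between the strains in NNK arrays (36.2%, against 53.3% of all genes), 10 higher and 11 lower in A/J. The median size of a neighbour's difference was 0.11, and 0.13 over all tested genes. The largest was that of Ccdc181, next but one to Nme7, at 0.42 (adjusted p = 1.52e-06). Itih5 beside Sfmbt2 was at -0.37 (adjusted p = 0.000214) and Fgfbp1 beside Bst1 at 0.34 (adjusted p = 0.000600). Around Dysf, Nagk was at 0.26 (adjusted p = 7.33e-06) and Exoc6b at -0.15 (adjusted p = 0.000404).

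**Figure D5:**
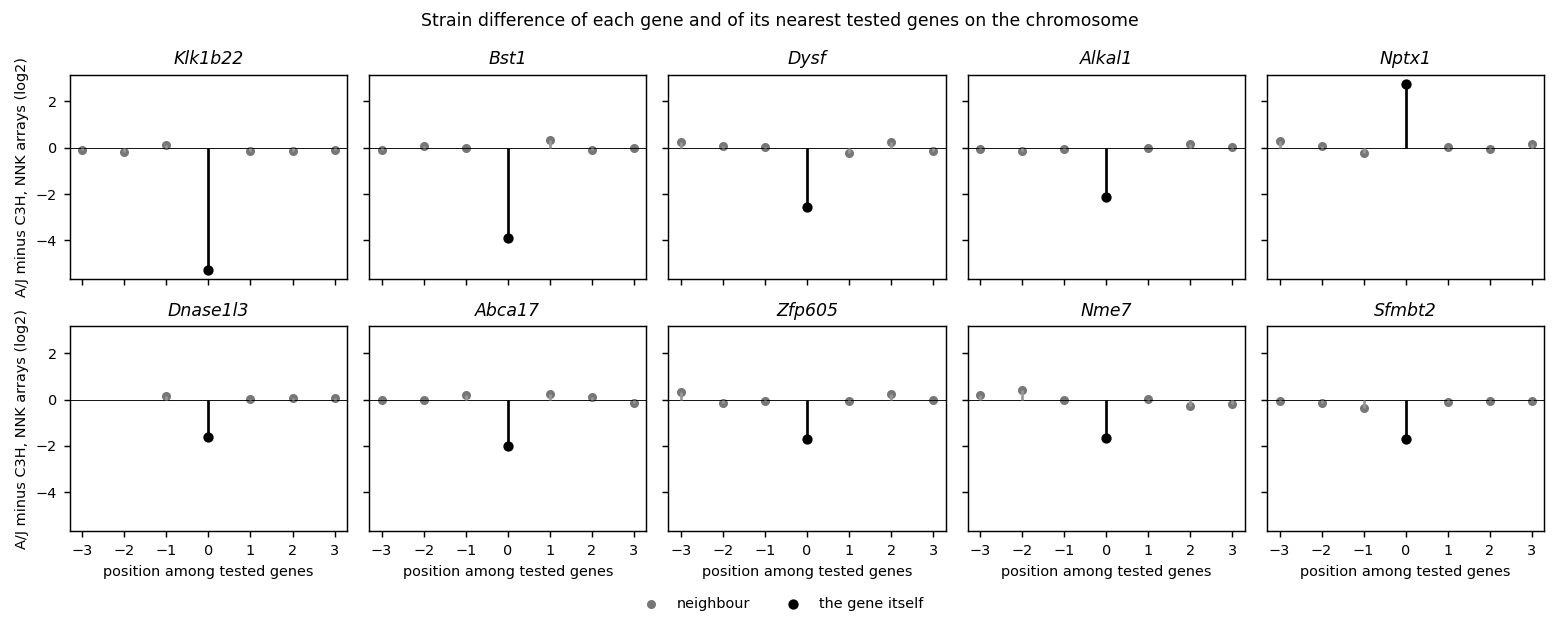
A/J minus C3H difference in NNK arrays (log2) for each gene (black, position 0) and for up to 3 tested genes on either side on the chromosome (grey), in the order of the gene table. The neighbours lie within 0.42 of 0 in every panel, while the genes themselves lie at -1.63 or below, or at 2.76.

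A promoter entry in the RefSeq table existed for 6 of the 10 genes, with 8 start sites. Bst1, Alkal1, Nptx1 and Dnase1l3 are named only. Windows of 250 bases before the start were searched on both strands for TATAAA (the core promoter box bound by TBP), for GGGCGG (the GC box), for CCAAT and for CACGTG (an E-box). No motif is contained in another. Of the 8 windows 0 held TATAAA (12.4% of 32851 windows of all genes) and 0 held CACGTG (6.02%). GGGCGG was in 5 of 8 (32.7%) and CCAAT in 4 of 8 (33.8%). The windows of Nme7 and Zfp605, both lower in A/J, are shown as examples of a window with both of these motifs and a window with none of the 4: Nme7 had 19 CpG and Zfp605 had 6. Both are on the plus strand of GRCm38.p6 from RefSeq, Nme7 at chr1:164307422-164307671 and Zfp605 at chr5:110109842-110110091, with the motif letters in capitals.
Nme7: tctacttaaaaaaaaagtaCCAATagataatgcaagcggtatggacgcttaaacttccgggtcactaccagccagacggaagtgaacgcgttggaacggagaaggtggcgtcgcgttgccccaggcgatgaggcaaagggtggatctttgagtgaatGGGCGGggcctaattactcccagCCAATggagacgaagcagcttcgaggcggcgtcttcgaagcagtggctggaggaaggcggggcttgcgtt
Zfp605: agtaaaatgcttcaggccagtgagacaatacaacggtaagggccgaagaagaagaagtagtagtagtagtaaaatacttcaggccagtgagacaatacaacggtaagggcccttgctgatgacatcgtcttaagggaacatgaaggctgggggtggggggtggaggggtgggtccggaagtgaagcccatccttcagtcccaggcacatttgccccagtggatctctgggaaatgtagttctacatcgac

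In Nme7 the CCAAT letters began 231 and 70 bases before the start and the GC box 93 bases before it. A match or its lack describes only the letters of the reference window. With a median of 52.4% G and C over all windows, Nme7 had 54.8% and Zfp605 50.8%.

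Each of the 10 genes was read by exactly 1 probe set with its symbol and by 0 shared with other symbols, so no second probe set of the same gene could be compared. Neither probe letters nor strain variants were in the files used here, and the part of sequence variants under the probes in these differences was not tested.

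Across the 36 arrays with each strain centred on its mean, the 10 genes were compared in pairs. Over their 45 pairs Pearson's r ran from -0.16 to 0.51 with a median of 0.23, values that share arrays and normalization. By the same measure the tested genes most like Alkal1 were Slc5a1 (0.83) and Slc15a1 (0.80), which encode a glucose and a peptide cotransporter. Those most like Dysf were Lrsam1 (0.83) and Dvl2 (0.82), and those most like Dnase1l3 were H2-M2 (0.83) and Trgv1 (0.69). For Zfp605 they were Hmgn3 (0.82) and Lins1 (0.79), for Nptx1 Masp1 (0.80) and Prkar1b (0.79), and for Bst1 Ttc39c (0.77) and Slc37a2 (0.77). For Sfmbt2 they were Bcar3 and Sun2 (both 0.76), and for Abca17 Tmem81 (0.76) and Sin3b (0.75). The lowest top values were those of Nme7, Cntrl (0.72) and Wdr35 (0.71), and of Klk1b22, Arhgef11 (0.69) and Zfp653 (0.66). These are descriptions over 36 arrays, each the highest of 14953 genes.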

How the data were processed

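Total RNA of mouse lung was measured on 36 arrays. Deposited values are linear intensities, 1 per probe set, which the authors computed by PLIER, using the software Affymetrix Expression Console, as the submitters' processing notes state. Their versions and settings and the build are not given in the sources used here. Of 35556 probe sets, 21789 had 1 symbol in the platform annotation, 1621 several and 12146 were not named there. By Entrez ID 21698 matched a gene table of GRCm38.p6, and 0 symbols changed. The table gave names, neighbours and microRNA genes within Sfmbt2. The probe set of highest mean was kept for each of 19938 genes. Values were turned to log2(intensity + 16), and arrays were quantile-normalized. From the 25th percentile of mean level upward, 14953 genes entered 1 limma 3.58.1 fit (R 4.3.3) with a mean for each of 18 groups, 18 residual degrees of freedom and Benjamini-Hochberg adjustment over all tested genes at 0.05. Effects are means of weekly differences, and the week trend is a linear contrast over weeks 0 to 12. Errors of differences are standard errors of the fit. Scripts were tested on simulated data. Promoter windows were aligned with Biopython 1.88.

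The members, lists and tests were chosen with earlier results of these data known. Named were the 10 genes, the 2 genes most like each and markers placed beside a result. Up to 2 called genes of each pathway list and of each gene's neighbours were also named, by smallest p. Cspg4b, Nppa, H2-T10, Bpifb1, Klk1b9, Klk4 and the dim microRNA genes were named after their values were seen. Array numbers were not used to pair the samples in the main fit. The alternatives were the deposited scale, a constant of 1, no filter, a filter at percentile 50, array weights, trended robust variances, a replicate block, separate fits, all probe sets averaged, doubtful arrays left out and each array left out.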

Additional observations from a re-analysis of the deposited data

Results flagged for a closer look

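In 3 of 40 groups of arrays checked (a gene in 1 strain and treatment) the highest or lowest array stood apart from the rest, and chance gives about 1 in 20 groups, or 2. Bst1 was 10.86 in C3H NNK array 1 of week 3, and the nearest other array was at 10.53. The same array had the highest Saa3 level of all, 13.33, and its part in this value was not tested. Zfp605 was 8.53 in untreated C3H array 2 of week 12, below the nearest array at 8.80. Sfmbt2 was 6.72 in untreated A/J array 2 of week 0, below the nearest array at 7.13. That array is 1 of the 3 with high Lor, at 13.65. None of these values reached the range of the other strain.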

How the results depend on the processing

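The strain difference in NNK arrays passed for 10 of 10 genes under every alternative that tested them and in all fits without 1 array (10 to 10). With a filter at the 50th percentile 3 passed, since only Alkal1, Nptx1 and Nme7 were then tested. Counts for NNK changes share the untreated arrays of the choice and are given as values only. NNK changes in A/J passed for 1 gene with array weights and for 1 without week 6 and the untreated A/J array with high Lor, against 2, and for 1 to 4 without 1 array. The difference of NNK changes passed for 0 without week 6 and that array, against 1, and for 1 to 2 without 1 array. A/J week trends passed for 0 on the deposited scale, for 1 with the 50th percentile filter, 1 with array weights, 2 with each strain fitted alone and 1 without week 6 and that array, against 4, and for 1 to 4 without 1 array. The difference of week trends passed for 0 to 1 without 1 array. Apart from the filter, which tested fewer genes, the cause of these moves was not tested. No called value changed sign. Same-numbered arrays did not in general deviate together (r from -0.38 to 0.42 over 153 pairs of groups, median 0.02). In 47 of the pairs r was above 0.1, so shared deviations in some groups are not excluded. With the array number as a replicate block, 10, 3 and 4 genes passed for the strain difference, the A/J NNK change and the A/J trend. Zfp605 was the gene gained for the A/J NNK change. It also passed with a constant of 1, with trended robust variances and without 2 NNK arrays that stood apart, from which nothing is read. Differences of changes or trends were not fitted on 1 strain alone. Over all genes, calls ranged from 483 to 2963 for the A/J NNK change (1502 as reported), 2 to 41 for C3H (12), 5 to 1080 for their difference (169), 1415 to 5280 for the A/J trend (3410), 13 to 594 for the C3H trend (129), 43 to 796 for the difference of trends (197), 21 to 437 for the F test (144) and 6007 to 8748 for the strain difference (7966). Klk1b22 in A/J is dim, and its strain difference moves with the added constant (-5.28 with 16, -5.91 with 1).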
